A study of Mus musculus with 13 samples.

Results

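Endothelial nuclei of mouse kidney were compared between newborn and adult animals by single nuclei ATAC-seq (snATAC-seq), which marks DNA that a transposase can reach in each nucleus. The nuclei were those that the study's own annotation calls Endo, 2368 of 28316 nuclei in the series. Whole kidneys were lysed for nuclei, without a sort for any cell type. The newborn group held 2 samples at postnatal day 0 (P0), with 592 and 412 endothelial nuclei. The adult group held 1 sample at P21 with 221 nuclei and 2 at P56 with 712 and 431. The labels name no treatment or altered allele in either group. The strain C57BL/6 was stated for the dissociated cells of the same study, and for the snATAC-seq animals strain and sex were not given in the sources used here. The older mice were perfused with cold saline through the heart, whereas the newborns were decapitated with no perfusion named and their kidneys lysed in a smaller volume, so age and handling cannot be told apart. The labels do not say whether a sample came from 1 animal or several, so p-values measure the spread between these samples only.

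The kidney vasculature holds fenestrated glomerular capillaries, peritubular capillaries that take up what the tubules return, arterioles, veins and lymphatics. At birth new nephrons are still forming and the vessels grow with them, under Vegf, angiopoietin, Notch and Bmp signals. Endothelial identity is held by ETS, SOX, GATA and KLF transcription factors, and the mature endothelium also senses steroid hormones and presents antigen to passing leukocytes.

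Open calls were summed over the endothelial nuclei of each sample. An open call is 1 nucleus with at least 1 fragment in 1 peak, and the sums were 4266921 and 2765074 in the P0 samples, 630232 in the P21 sample, and 1900786 and 1270766 at P56. Gene activity is the sum over the peaks in a gene's body and the 2 kb upstream. Levels are given as CPM, normalized open calls scaled to a fixed total. Fold changes are log2 of adult over P0, so a negative value is higher at P0. Sums over a list, and means compared between cell types, are scaled to the total alone. They leave out the normalization factors of single genes, 1.04 and 1.06 at P0 and 0.942 to 0.989 in adult samples. A peak or gene was called changed at an adjusted p under 0.05 in edgeR's quasi-likelihood test over all peaks or genes.

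Depth per nucleus differed with stage. The median endothelial nucleus had 7195.5 and 6508.5 open peaks at P0, 2099 in the P21 sample, and 2441.5 and 2306 at P56. The ratio of P0 to adult medians was 3.00, the largest among the 13 named cell types, the others lying between 1.06 in podocytes and 2.15 in stroma 2. A binary call cannot rise above 1, which limits the level of widely open peaks in deep nuclei. The part of this limit, or of the count filter, in the following values was not tested. Among tested peaks, the highest quartile of level had a median log2 fold change of 0.33, with 26.7% called higher in adult, and the lowest quartile a median of -0.72, with 32.9% called higher at P0. The main results below are therefore also given for nuclei of 2000 to 5000 open peaks, here called nuclei of narrowed depth, which left 120, 99, 90, 405 and 204 nuclei. Their medians were 3844.5 and 3512 open peaks at P0, 2916.5 in the P21 sample, and 2902 and 2842 at P56, so depth still differed with stage. In these nuclei the highest quartile had a median of 0.05, with 3.75% called higher in adult and 1.80% at P0. The third quartile there had a median of -0.30, with 10.8% called higher at P0 and 4.33% in adult, and only 49 peaks of the second and 1 of the lowest could be tested.

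Among the 45215 tested peaks, of 300755 in all, 7496 (16.6%) were called higher at P0 and 6703 (14.8%) higher in adult. Among 21732 tested genes, 3020 (13.9%) were called higher at P0 and 2477 (11.4%) higher in adult. In the nuclei of narrowed depth 625 and 574 of 14801 peaks (4.22% and 3.88%) and 801 and 512 of 14877 genes (5.38% and 3.44%) were called at P0 and in adult, with far fewer nuclei in the sums, and counts of list genes at narrowed depth are to be read against these. These nuclei are part of those that gave the calls above, so their values are no independent check. Counts also leaned on the P0 samples: without the first, 1724 and 1177 peaks and 533 and 269 genes were called at P0 and in adult, without the second 2835 and 1394 peaks and 935 and 294 genes. Without the first P56 sample, 4346 genes were called higher in adult. Of the 147 genes named by the rules, 100 lost their call when P0 replicate 1 was left out and 92 when replicate 2 was, which limits each list count given. DESeq2 called 2210 and 2645 peaks (4.89% and 5.85%) and 1313 and 1537 genes (6.04% and 7.07%).

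A second test asked whether the stage change in endothelium differed from the mean stage change of the 12 other cell types of the same samples. It called 1241 peaks (2.74%) and 1463 genes (6.73%) in the P0 direction, and 2338 peaks (5.17%) and 1770 genes (8.14%) in the adult direction. These counts moved with the samples and with the way other types were summed. Over the 5 fits that left out 1 sample they were 352 to 1103 peaks in the P0 direction and 656 to 2497 in the adult direction, both lowest without the first P0 sample, and 356 to 1771 and 517 to 1770 genes. With the other types pooled into 1 profile a sample they were 8952 and 7424 peaks and 3437 and 3573 genes. Calls that passed both tests in the same direction were 513 peaks (1.13%) and 751 genes (3.46%) at P0, and 1153 peaks (2.55%) and 834 genes (3.84%) in adult. For 22543 peaks (49.9%) and 1765 genes (8.12%) another cell type had no open call at all at one stage, and the result of this second test is taken as undecided there, whatever its p. Such features are among the calls that passed both tests, as 193 of the 513 peaks and 44 of the 751 genes at P0, and 109 of the 1153 peaks and 10 of the 834 genes in adult.

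The nuclei carried the marks of their label, which the study itself gave from accessibility at marker genes, Egfl7 among them. Marker activity is therefore no independent check of the label. All 17 endothelial marker genes had a higher mean activity in these nuclei than in any other type, and 16 led in each of the 5 samples. The exception was Cldn5, a tight junction claudin, which led in 2 of 5 samples, with podocytes close behind on average (a ratio of 1.05). Markers of other cells were present too, and some moved with stage or sample. The 8 podocyte genes summed to 566 and 550 CPM at P0, 653 CPM in the P21 sample, and 720 and 756 CPM at P56, the highest after podocytes themselves (a mean of 1392 CPM). Synpo and Podxl, the latter also an endothelial gene, made up most of this sum and were called higher in adult, whereas Wt1 and Ptpro, also of the 6 tested, were called higher at P0. The podocyte-defining Nphs1 had 3.57 to 9.01 CPM in the 5 samples. The 10 distal nephron and duct genes summed to 93.0 and 91.4 CPM at P0 and 134 to 153 CPM in adult samples, and 2 of 5 tested, Umod and Slc12a3, were called higher in adult and 0 at P0. Calls in these marker lists are to be read against 13.9% of all tested genes at P0 and 11.4% in adult. The summed activity of 11 stromal and mural genes was 186 and 197 CPM at P0 against 85.6 to 104 CPM in adult samples, and 3 of 9 tested, Pdgfra, Foxd1 and Gata3, were called higher at P0 and 0 in adult. The 8 nephron progenitor genes summed to 157 and 160 CPM at P0, 174 CPM in the P21 sample, and 144 and 146 CPM at P56. The gap between P0 and P56 is not read as a difference, since the sums leave out the factors above. Of 7 tested, 3 were called higher at P0, Six2, Cited1 and Spock2, and 0 in adult, with a median log2 fold change of -0.51. The 10 proximal tubule genes summed to 377 CPM in the P21 sample against 251 to 302 CPM in the others, and of 7 tested 1 was called higher at P0 and 2 in adult. The 10 immune genes summed to 87.2 and 97.7 CPM at P0, 57.2 CPM in the P21 sample, and 64.3 and 114 CPM at P56. By single-gene CPM, which include the factors, Cd74 had 72.7 CPM in the second P56 sample. The 8 erythroid genes summed to 44.8 and 38.5 CPM at P0 and 18.8 to 26.4 CPM in adult samples, and of the 2 that could be tested Epor was called higher at P0. No doublet caller was run here, and removal of doublets from these nuclei was not given in the sources used here. Each called peak was also assigned to the named cell type in which it was most open. For peaks called higher at P0 this was endothelium for 56.3% and stroma 2 for 11.2%. For peaks called higher in adult it was endothelium for 39.4%, and the proximal tubule types PT2 and PT for 22.3% and 6.09%. Other types made up the rest. The same shares over all tested peaks are not given here, so no excess of any type is read from them. What part nuclei of other types had in the results below was not tested. Between pairs of samples, 4 barcodes of endothelial nuclei were shared. The activity of Xist, which females express, was 3.67 and 2.45 CPM at P0, 19.1 CPM in the P21 sample, and 0.989 and 6.42 CPM at P56, and a part of sex in the results was not tested.

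Most clock and glucocorticoid response genes were higher in adult nuclei. Of 20 tested members, 16 were called higher in adult and 0 at P0, against 11.4% and 13.9% of all tested genes, with a median log2 fold change of 0.84 against 0.00 for all tested genes. In the nuclei of narrowed depth 10 passed the test and the list median was 0.68. The call against the other cell types was met by 6 of the 20, against 3.84% of all tested genes that passed both tests in adult, so for most of these genes the stage change was not shown to differ from that of other kidney cells. The hour at which the kidneys were taken was not given, and its part in these values was not tested.

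Zbtb16 (ENSMUSG00000066687.5, chr9:48654297-48836222, GRCm38) encodes a zinc finger repressor that glucocorticoids induce. Its activity was 145 and 142 CPM at P0, 332 CPM in the P21 sample, and 515 and 593 CPM at P56. The groups did not overlap, as for 5506 of 21732 tested genes in the adult direction. Its log2 fold change was 1.76 ± 0.19 (approximate SE) with an adjusted p of 0.00012, and 1.56 at narrowed depth. Of its 51 peaks, 14 could be tested, and all 14 were called higher in adult. Peak counts of single genes are to be read against 16.6% of all tested peaks called higher at P0 and 14.8% in adult. A gene's activity is the sum over such peaks, so these counts are not independent of its call. One lay in an intron at chr9:48723370-48724239 and was open in 3.89% and 2.43% of P0 nuclei, 10.9% of P21 nuclei, and 22.9% and 27.1% of P56 nuclei. The log2 fold change of the peak was 4.09 ± 0.32 with an adjusted p of 8.9e-09, and 3.18 at narrowed depth. Another cell type had no open call there at one stage, so the test against the other types is undecided.

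The central 300 bases of this intronic peak, chr9:48723655-48723954 on the plus strand of GRCm38, are shown because they hold letters of both the clock and the glucocorticoid motif. Capitals mark a D-box, the site of Dbp, Tef and Hlf (TTANGTAA, here on the opposite strand), followed by 2 overlapping matches, 1 on each strand, to the glucocorticoid receptor motif (ACA, 3 bases, TGT, 1 base, C).
Zbtb16 intron: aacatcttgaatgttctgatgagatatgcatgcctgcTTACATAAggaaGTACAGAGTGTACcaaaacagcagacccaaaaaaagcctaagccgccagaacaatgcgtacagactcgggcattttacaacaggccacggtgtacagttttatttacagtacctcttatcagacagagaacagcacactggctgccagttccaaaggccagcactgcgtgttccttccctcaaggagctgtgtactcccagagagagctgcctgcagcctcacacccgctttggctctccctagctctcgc

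Among other genes that glucocorticoids induce, Fkbp5, a co-chaperone of the receptor, had 162 and 170 CPM at P0, 246 CPM in the P21 sample, and 335 and 452 CPM at P56. The difference was 1.07 ± 0.19 on the log2 scale, and 1.16 at narrowed depth. Klf9, a zinc finger factor, rose from 84.6 and 84.2 CPM at P0 to between 156 and 196 CPM, with a log2 fold change of 1.06 ± 0.15. Tsc22d3, which encodes the anti-inflammatory protein Gilz, had a log2 fold change of 0.77 ± 0.16, and Pdk4, a brake on glucose oxidation, one of 1.01 ± 0.20. Sgk1, a kinase that glucocorticoids also induce, was not called, at 0.30 ± 0.13. The receptor itself, Nr3c1, had 85.4 and 81.5 CPM at P0 and 110 to 117 CPM in adult samples and was not called.

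The clock genes of the list other than Arntl and Bhlhe41 were called higher in adult too. Nr1d1 (ENSMUSG00000020889.11, chr11:98767932-98775333), the repressor Rev-erb alpha, had 83.2 and 84.2 CPM at P0, 225 CPM in the P21 sample, and 188 and 330 CPM at P56. Its log2 fold change was 1.56 ± 0.20 with an adjusted p of 0.00025, and 1.54 at narrowed depth. Dbp, an output factor of the clock, had 78.8 and 88.3 CPM at P0, 207 CPM in the P21 sample, and 172 and 296 CPM at P56. Both genes were highest in the second P56 sample and lowest among adults in the first. Nr1d1 and Dbp also passed the test against other cell types, with differences of 0.52 and 0.59 on the log2 scale.

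Among repressors of the clock, Per1 had 148 and 159 CPM at P0 and 232 to 399 CPM in adults, with a log2 fold change of 1.06 ± 0.19. Per2 and Per3 had 0.76 ± 0.14 and 0.92 ± 0.24, and Bhlhe40 0.90 ± 0.19, while Bhlhe41 was not called, at 0.36 ± 0.21. The output factors Hlf and Tef had 1.27 ± 0.17 and 0.77 ± 0.15. In contrast Arntl, which encodes the activating partner Bmal1, had 138 and 146 CPM at P0 and 141 to 157 CPM in adults and was not called (log2 fold change 0.07 ± 0.14).

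An intronic peak of Nr1d1 at chr11:98773819-98774492 was open in 21.8% and 21.8% of all P0 nuclei, 34.4% in the P21 sample, and 19.7% and 43.4% at P56, so by this share the first P56 sample lay below both P0 samples. At narrowed depth the shares were 9.17% and 12.1% at P0, 41.1% in the P21 sample, and 25.7% and 49.5% at P56. With normalized open calls of all nuclei the log2 fold change was 1.93 ± 0.26 with an adjusted p of 8.1e-06, and 1.92 at narrowed depth. Its central 300 bases, chr11:98774006-98774305 on the plus strand, are shown because they hold both clock motifs searched, in capitals, a D-box (TTANGTAA) and the E-box CACGTG that Clock and Bmal1 bind.
Nr1d1 intron: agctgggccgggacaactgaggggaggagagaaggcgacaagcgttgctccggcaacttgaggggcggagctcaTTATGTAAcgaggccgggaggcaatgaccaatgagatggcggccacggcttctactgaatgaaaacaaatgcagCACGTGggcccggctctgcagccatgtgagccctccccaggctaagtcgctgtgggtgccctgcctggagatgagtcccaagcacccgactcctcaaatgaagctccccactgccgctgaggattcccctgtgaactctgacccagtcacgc
In RefSeq's promoter table of GRCm38.p6, 16 of the list's promoters had an entry, and 5 of them (31.2%) held CACGTG in the 250 bases upstream of the start, against 6.02% of 32851 promoters. The glucocorticoid receptor motif was in 0 of the 16, against 2.61% of all promoters.

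**Figure D1:**
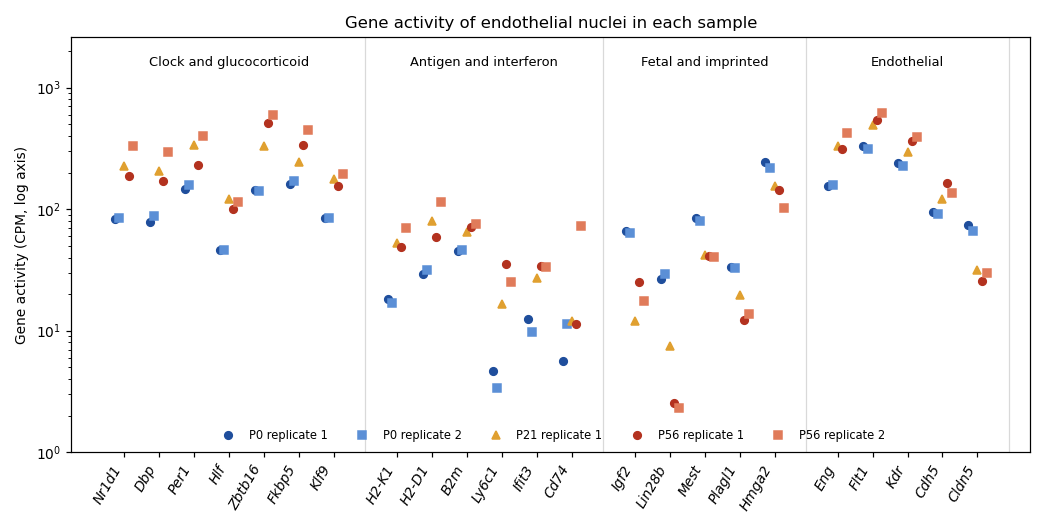
Gene activity of endothelial nuclei in CPM (log axis) for members of 4 lists, 1 point for each sample, with circles and squares for replicates 1 and 2 and triangles for P21. Nr1d1 and Zbtb16 were above 180 CPM in each adult sample and below 150 CPM in both P0 samples, Igf2 and Lin28b lay the other way, and Cd74 was high in the second P56 sample alone.

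Antigen presentation and interferon genes also lay on the adult side. Of 28 tested members, 20 were called higher in adult and 0 at P0, against 11.4% and 13.9% of all tested genes, with a median log2 fold change of 0.91. DESeq2 called 14 of the 20. At narrowed depth 8 of the list passed the test and the median was 0.96, and 11 of the 28 passed both tests in the adult direction, against 3.84% of all tested genes. The class I heavy chain gene H2-K1 (chr17:33996017-34000347) had 18.3 and 16.8 CPM at P0, 52.6 CPM in the P21 sample, and 49.2 and 70.4 CPM at P56. The stages did not overlap, as for 5506 of 21732 tested genes in the adult direction. Its log2 fold change was 1.69 ± 0.20 with an adjusted p of 0.00018, and 1.40 at narrowed depth. H2-D1, another class I chain, had a log2 fold change of 1.47 ± 0.25, and B2m, their common light chain, one of 0.63 ± 0.18.

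Among genes that load class I molecules, Tap1, a subunit of the peptide transporter, had a log2 fold change of 0.88 ± 0.21, and Psmb8, an immunoproteasome subunit, one of 0.98 ± 0.18. Tap2, the other subunit of the transporter, was not called, at 0.29 ± 0.21. Tap1 and Psmb9 lie head to head and share peaks, so their values are not independent. Nlrc5, the transactivator of class I genes, had 25.4 and 29.3 CPM at P0, 31.5 CPM in the P21 sample, and 64.0 and 60.4 CPM at P56. Ciita, the transactivator of class II genes, had 31.5 and 38.4 CPM at P0 and 67.6 to 78.0 CPM in adults.

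Among class II genes the values of 1 sample stood apart. Cd74, the class II invariant chain, had 5.58 and 11.5 CPM at P0, 12 CPM at P21, 11.3 CPM in the first P56 sample and 72.7 CPM in the second. The log2 fold change of 2.01 ± 0.62 rested on the second P56 sample, and DESeq2 did not call it (adjusted p 0.27). H2-Aa and H2-Ab1 were highest in the same sample, at 27.5 and 68.1 CPM, and were not called, although both tested peaks of H2-Ab1 were called higher in adult. The summed immune list was also highest in the second P56 sample, Cd74 included. Of its 10 genes 4 could be tested, and Laptm5 was called higher at P0, Cd74 in adult, and Csf1r and Spi1 in neither. The defining markers Ptprc and C1qc had too few open calls to be tested. The part of immune nuclei in the class II values was not tested.

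Among interferon targets, Ly6c1 (chr15:75044018-75048830), a marker of microvascular endothelium, had 4.69 and 3.37 CPM at P0, 16.5 CPM in the P21 sample, and 35.3 and 25.2 CPM at P56. A log2 fold change of 2.73 ± 0.35 was the largest of the list, and 3.59 at narrowed depth. Ifit3, an antiviral effector, had 12.5 and 9.77 CPM at P0 and 27 to 34.3 CPM in adults, with a log2 fold change of 1.52 ± 0.23. Stat2, part of the factor that interferon activates, had a log2 fold change of 1.14 ± 0.19.

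The Ifit3 promoter is shown because it holds the motif 2 times, as the 250 bases before its start at chr19:34583279-34583528 on the plus strand of GRCm38.p6. Capitals mark matches to the interferon regulatory factor (IRF) motif (GAAA, 2 bases, GAAA), both read on the opposite strand.
Ifit3: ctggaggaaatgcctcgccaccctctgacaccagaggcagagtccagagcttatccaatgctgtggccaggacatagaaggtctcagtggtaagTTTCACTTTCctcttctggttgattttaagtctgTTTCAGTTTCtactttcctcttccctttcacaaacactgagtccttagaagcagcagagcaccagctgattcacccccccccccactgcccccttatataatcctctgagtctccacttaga
The IRF motif was found in 7 of the 19 promoters of the list that had an entry (36.8%), against 2.98% of all promoters.

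Genes of fetal growth and imprinting lay on the other side. Of 18 list genes, 15 were tested, 8 of these were called higher at P0 and 0 in adult, against 13.9% and 11.4% of all tested genes, and the median log2 fold change was -0.67. At narrowed depth 3 passed the test, with a median of -0.44, and 2 of the 15 passed both tests, against 3.46% of all tested genes. Lin28b (chr10:45376620-45486395), the RNA-binding protein that blocks let-7 maturation, had 26.8 and 29.3 CPM at P0, 7.51 CPM in the P21 sample, and 2.56 and 2.30 CPM at P56. Its log2 fold change was -3.04 ± 0.37 with an adjusted p of 0.00021, and -3.39 at narrowed depth. Igf2 (chr7:142650766-142666816), the fetal growth factor, had 66.3 and 63.7 CPM at P0, 12 CPM in the P21 sample, and 25.1 and 17.6 CPM at P56.

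Among RNA-binding proteins of Igf2 mRNA, Igf2bp3 had a log2 fold change of -0.67 ± 0.16, and of its 5 tested peaks 3 were called higher at P0 and 1 in adult. The peak over its start site, chr6:49214812-49215940, was open in 24.8% and 29.4% of P0 nuclei against 2.26%, 1.54% and 0.928% of adult nuclei. The fold change of that peak was -2.80 ± 0.32 on the log2 scale with an adjusted p of 1.3e-06, and -3.03 at narrowed depth. Igf2bp1 had a log2 fold change of -1.09 ± 0.31, and Igf2bp2 was not called at -0.13 ± 0.17, although 2 of its 5 tested peaks were called higher at P0 and 0 in adult. The imprinted genes Plagl1 and Mest had -1.23 ± 0.23 and -0.99 ± 0.18, whereas Peg3 and Grb10 were not called. Hmga2, a chromatin protein of growing tissue, had 243 and 220 CPM at P0 and 102 to 155 CPM in adults.

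**Figure D2:**
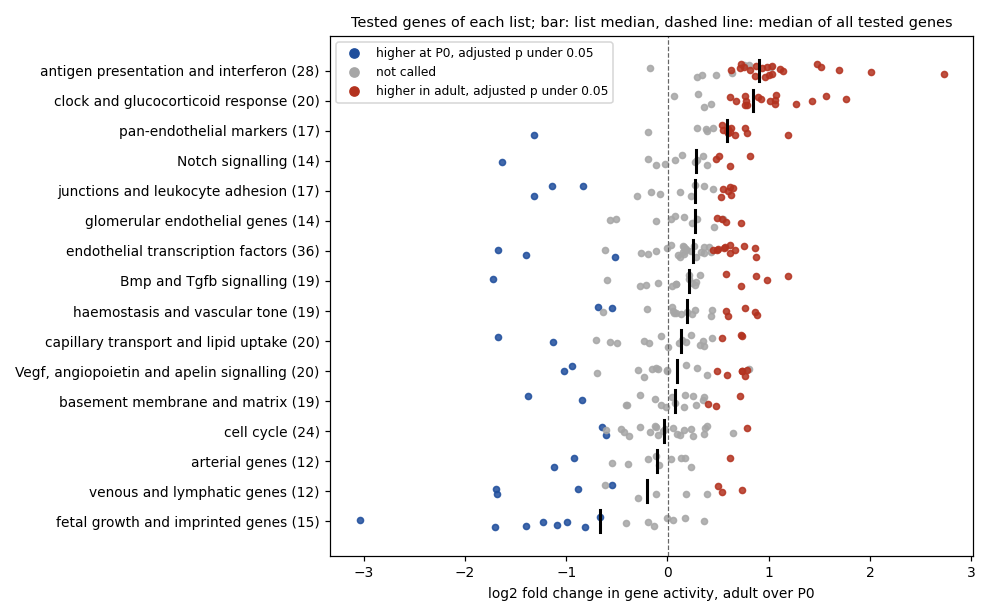
Log2 fold change in gene activity, adult over P0, for each tested gene of 16 lists, 1 point a gene, colored by its call, with a bar at the list median and a dashed line at the median of all tested genes. The number of tested genes is in parentheses. The medians ran from -0.67 for fetal growth and imprinted genes to 0.91 for antigen presentation and interferon genes.

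Most endothelial marker genes were higher in adult nuclei. Of 17 tested, 11 were called higher in adult and 1 at P0, against 11.4% and 13.9% of all tested genes, with a median log2 fold change of 0.59. These genes are among the most open in the nuclei, and at narrowed depth 3 were called higher in adult and 1 at P0, with a median of 0.50. Both the stage test and the test against other cell types were passed by 8 in the adult direction, against 3.84% of all tested genes. Eng (chr2:32646595-32682669), a co-receptor for Bmp9 that keeps vessels quiescent, had 154 and 158 CPM at P0, 333 CPM in the P21 sample, and 313 and 422 CPM at P56. Its log2 fold change was 1.19 ± 0.15 with an adjusted p of 0.00021, and 1.07 at narrowed depth, and 10 of its 11 tested peaks were higher in adult. Flt1 (Vegf receptor 1), a decoy for Vegf, had 329 and 313 CPM at P0 and 491 to 621 CPM in adults, with 0.79 ± 0.13 on the log2 scale over all nuclei and 0.79 at narrowed depth. Pecam1, an adhesion molecule between endothelial cells, had 0.59 ± 0.12, and 0.61 at narrowed depth. Cdh5, the adherens junction cadherin, had 0.62 ± 0.16 over all nuclei but 0.18 at narrowed depth, where it was not called.

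Cldn5 (chr16:18776847-18778262) was the 1 marker called higher at P0, and 5 others were not called, among them Ecscr at -0.19 ± 0.18. It had 74.3 and 66.7 CPM at P0, 31.5 CPM in the P21 sample, and 25.6 and 29.8 CPM at P56. The log2 fold change was -1.32 ± 0.18 with an adjusted p of 0.00037, and -1.74 at narrowed depth, while the difference from the other cell types was 0.05 and not called. Its start-site peak, chr16:18776632-18778048, was open in 28.0% and 25.7% of P0 nuclei and in 5.88%, 1.83% and 4.87% of adult nuclei. Among junction genes, the others called higher at P0 were Ocln, also a tight junction protein, at -1.14 ± 0.28, and Selp, the P-selectin that rolls leukocytes, at -0.83 ± 0.17. In that list of 17 tested genes, 3 were called higher at P0 and 6 in adult, against 13.9% and 11.4% of all tested genes, among the latter Jam3 and Podxl, and at narrowed depth 2 and 1 passed.

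Among 36 endothelial transcription factors, 11 were called higher in adult and 3 at P0, against 11.4% and 13.9% of all tested genes, with a median log2 fold change of 0.25, and at narrowed depth 6 and 1. Epas1, the hypoxia factor Hif2 alpha, had 207 and 202 CPM at P0 and 324 to 359 CPM in adults, with 0.76 ± 0.12 on the log2 scale. Klf2, which responds to blood flow, had 64.9 and 68.7 CPM at P0 and 101 to 146 CPM in adults, with 0.87 ± 0.18. Erg, an ETS factor of endothelial identity, had 0.62 ± 0.12. Ets1, Mef2c, Tal1 and Sox18 were not called, at 0.03, -0.01, 0.13 and 0.19. Higher at P0 were Meox2, a homeobox factor, at -1.68 ± 0.34, Sox11 at -1.40 ± 0.34 and Foxp1 at -0.52 ± 0.16, and Sox11 was not called by DESeq2 (adjusted p 0.32).

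In Vegf, angiopoietin and apelin signalling, 6 of 20 genes were called higher in adult and 2 at P0, against 11.4% and 13.9% of all tested genes. The first were the receptors Flt1, Kdr, Tek, Tie1 and Calcrl and the phosphatase Ptprb, and the second the ligands Angpt1 and Apln. Kdr (Vegf receptor 2) and the angiopoietin receptors Tek and Tie1 had log2 fold changes of 0.59 ± 0.14, 0.73 ± 0.14 and 0.77 ± 0.17. Calcrl, the adrenomedullin receptor, had 89.2 and 79.5 CPM at P0, 108 CPM in the P21 sample, and 162 and 145 CPM at P56. Angpt1, which activates Tek, and Apln, which growing tip cells make, had -1.02 ± 0.20 and -0.94 ± 0.31, and DESeq2 did not call Apln. At narrowed depth Flt1, Tek, Ptprb and Calcrl passed the test, and 0 genes passed at P0, where Apln fell below the filter.

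In Bmp and Tgfb signalling, 5 of 19 genes were called higher in adult and 1 at P0, against 11.4% and 13.9% of all tested genes. Besides Eng, the Bmp targets Id1 and Id3, inhibitors of differentiation, had 60.2 and 67.0 CPM and 70.9 and 74.1 CPM at P0, against 107 to 140 CPM and 118 to 155 CPM in adults. Their log2 fold changes were 0.98 ± 0.17 and 0.87 ± 0.16. The inhibitory Smads followed, with 0.58 ± 0.14 for Smad6 and 0.72 ± 0.12 for Smad7, and the 5 called genes passed again at narrowed depth. The ligand Tgfb2 (chr1:186622792-186705989) had 52.2 and 52.2 CPM at P0, 16.5 CPM in the P21 sample, and 16.9 and 13.8 CPM at P56, a log2 fold change of -1.72 ± 0.19. The receptors Acvrl1, Tgfbr1, Tgfbr2 and Bmpr2 were not called.

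The Notch list had 4 of 14 genes called higher in adult, Notch4, Dll4, Lfng and Mfng, and 1 at P0, the target Heyl, at -1.64 ± 0.35, against 11.4% and 13.9% of all tested genes. DESeq2 called Notch4 and Dll4 but not Lfng and Mfng. At narrowed depth 0 of the 14 passed, and Notch4 and Dll4 had log2 fold changes of 0.55 and 0.47. Notch4, the receptor most restricted to endothelium, had 85 and 90.6 CPM at P0 and 141 to 178 CPM in adults.

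Counts for genes of vessel types are to be read against 13.9% of all tested genes called higher at P0 and 11.4% in adult. Of 12 tested arterial genes, 2 were called higher at P0, the chemokine Cxcl12 and the kinase Bmx, and 1 in adult, Dll4, shares near those of all genes. DESeq2 called neither Cxcl12 nor Bmx, both fell below the filter at narrowed depth, and Dll4 was not called there. Gja5, a gap junction protein of arteries, was called higher at P0 at narrowed depth (log2 fold change -1.25), but not over all nuclei (-0.55 ± 0.20). Of 12 tested venous and lymphatic genes, 4 were called higher at P0 and 3 in adult, by DESeq2 1 and 2, and at narrowed depth 0 and 1. The lymphatic genes Lyve1, a hyaluronan receptor, and Mmrn1 had 14.1 and 12.1 CPM and 7.81 and 7.07 CPM at P0, against 3.00 to 4.59 CPM and 0 to 3.06 CPM in adults, and DESeq2 called neither. Reln, also made by lymphatic vessels, had -0.89 ± 0.17 on the log2 scale, and Ephb4, a venous receptor, had 0.74 ± 0.13. Among 14 glomerular endothelial genes, 4 were called higher in adult and 0 at P0, and 2 of the 4, Smad6 and Meis2, also by DESeq2 and at narrowed depth. Fabp4, a fatty acid carrier, had 0.73 ± 0.18 and was among the calls lost in both. The glomerular gene Ehd3 had 83.9 and 73.4 CPM at P0, 97.6 CPM in the P21 sample, and 148 and 94.1 CPM at P56 and was not called. Of 20 genes of capillary transport and lipid uptake, 2 were called higher at P0 and 3 in adult, the first including Mfsd2a, a lipid transporter, at -1.13 ± 0.28. These shares too are near those of all genes, DESeq2 called 1 and 1, and at narrowed depth 0 and 0 passed. The proportions of vessel types among the nuclei were not measured.

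Matrix and haemostasis genes had calls in both directions. Of 19 basement membrane and matrix genes, 3 were called higher in adult, Col4a1, Col4a2 and Hspg2, and 2 at P0, Fn1 and Nid1, against 11.4% and 13.9% of all tested genes. These shares are near those of all genes. Nid1 was not called by DESeq2, and at narrowed depth Col4a1 and Fn1 passed. Col4a1, a chain of collagen IV, had 320 and 320 CPM at P0, 586 CPM in the P21 sample, and 442 and 562 CPM at P56. Fibronectin (Fn1) had 24.1 and 27.6 CPM at P0 and 7.51 to 11.3 CPM in adults, a log2 fold change of -1.38 ± 0.26. Of 19 genes of haemostasis and vascular tone, 5 were called higher in adult and 2 at P0, against 11.4% and 13.9% of all tested genes. The share at P0 is near that of all genes. Among the 5 was Ednrb, the endothelin B receptor, at 0.76 ± 0.17. The 2 at P0 were Vwf and Tfpi, neither of them called by DESeq2 or at narrowed depth, where 2 passed in adult. Nos3, the endothelial nitric oxide synthase, had 73.6 and 64.7 CPM at P0 and 58.6 to 77.3 CPM in adults and was not called.

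Of 24 tested cell cycle genes, 2 were called higher at P0 and 1 in adult, against 13.9% and 11.4% of all tested genes, with a median log2 fold change of -0.03. The proliferation marker Mki67 had 43.5 and 48.8 CPM at P0 and 28.2 to 32.1 CPM in adults, a log2 fold change of -0.60 ± 0.17, and E2f1 had -0.64 ± 0.22. Neither was called by DESeq2 or at narrowed depth. The inhibitor Cdkn1a, also a glucocorticoid target of the clock list, had 59.6 and 56.6 CPM at P0 and 91.6 to 114 CPM in adults. Cdk1 and Ccna2 were not called, and Top2a had 28.6 and 40.1 CPM at P0 and 33.8 to 48.2 CPM in adults.

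Beyond the lists, the protein-coding genes with the largest change among those that passed both tests were named, 12 in each direction. At P0 these were Cass4, Dcc, Ofcc1, Lin28b, Slc7a14, F830045P16Rik, Bcl11a, Myocd, Rtn1, Galnt17, Tnni3k and Rgs10, with log2 fold changes from -3.30 to -2.06, a range that the rule fixes in part. Bcl11a, the repressor of fetal hemoglobin genes, had 93.5 and 85.6 CPM at P0, 27 CPM in the P21 sample, and 17.4 and 11.5 CPM at P56, and 5 of its 5 tested peaks were higher at P0. Dcc, the netrin receptor, had 79.0 and 72.1 CPM at P0 and 5.63 to 13.5 CPM in adults. Cass4, a focal adhesion scaffold, had 31.0 and 30.0 CPM at P0, 0 CPM in the P21 sample, and 2.56 and 5.36 CPM at P56. At narrowed depth Myocd fell below the filter and Rgs10 missed the test. With the other types pooled, the second test was not passed by Myocd and Galnt17 (adjusted p 0.11 and 0.74 in edgeR).

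In adult the 12 genes were Xdh, Zbtb16, Cd300lg, Nr1d1, Itprip, Alpl, Dbp, Tnxb, Tmcc2, Krt80, Map3k6 and Tgm2, with log2 fold changes from 2.22 to 1.24. Xdh, the xanthine dehydrogenase that makes uric acid, had 23.4 and 24.6 CPM at P0, 76.6 CPM in the P21 sample, and 132 and 119 CPM at P56. Its log2 fold change was 2.22 ± 0.23 with an adjusted p of 9.3e-05, and 2.74 at narrowed depth, and its difference from the other cell types was 1.71. Cd300lg, the receptor nepmucin of capillary endothelium, had 77.6 and 74.8 CPM at P0, 165 CPM in the P21 sample, and 244 and 287 CPM at P56, and 5 of its 5 tested peaks were higher in adult. Tgm2, a transglutaminase that crosslinks matrix, had 80.5 and 92.3 CPM at P0 and 186 to 217 CPM in adults. All 12 of them passed the test again at narrowed depth, but with the other types pooled Alpl and Tgm2 did not pass the second test (adjusted p 0.77 and 0.99 in edgeR).

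Single peaks are described next, the 8 with the lowest p in each direction among those that passed both tests, each by its nearest gene. At P0, an intronic peak of Efl1, a ribosome assembly GTPase, in an intron that an antisense gene also spans, at chr7:82752038-82752952 was open in 17.2% and 14.8% of P0 nuclei and in 0.452%, 0.562% and 0.696% of adult nuclei. At narrowed depth these shares were 13.3% and 11.1% against 0%, 0.741% and 0.490%. With all nuclei the log2 fold change was -3.35 ± 0.41 with an adjusted p of 2.7e-06. A distal peak at chr1:41390144-41391019, nearest to Tmem182 but 584980 bases away, was open in 35.3% and 29.4% of P0 nuclei and in 0.696% to 3.09% of adult nuclei. A start-site peak of Robo1, an axon guidance receptor, was open in 23.0% and 16.3% of P0 nuclei and in 0.905% to 1.40% of adult nuclei, and one of Mast4 in 16.4% and 15.8% against 0.452% to 0.928%. Peaks near Vtcn1, Bcl11b, Man1a and F11 completed the set, and those near Vtcn1, Man1a and F11 lay where another cell type had no open call at one stage, so the second test leaves them undecided. Over all nuclei, which were deeper at P0, normalized log2 fold changes were -2.51 for the Tmem182 peak, -2.68 for Robo1 and -2.91 for Mast4. At narrowed depth the Tmem182 and Mast4 peaks had -3.51 and -5.16, and those of Robo1, Vtcn1 and Bcl11b could not be tested. With the other types pooled, the Robo1 peak did not pass the second test (adjusted p 0.053 in edgeR).

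The sequences of a pair of these P0 peaks are shown because they hold the SOX and E-box letters counted below. The distal peak at chr8:45238469-45239005, 23294 bases from F11, a coagulation factor gene, was open in 12.3% and 11.2% of P0 nuclei and in 0%, 0.281% and 0.464% of adult nuclei. Capitals mark its SOX motifs (ATTGTT or its reverse complement AACAAT) within the central 300 bases, chr8:45238588-45238887 on the plus strand, the second being the longer SOX17 form CCATTGTT. In the Efl1 peak, chr7:82752346-82752645 on the plus strand, capitals mark the E-box CAGCTG.
F11 distal: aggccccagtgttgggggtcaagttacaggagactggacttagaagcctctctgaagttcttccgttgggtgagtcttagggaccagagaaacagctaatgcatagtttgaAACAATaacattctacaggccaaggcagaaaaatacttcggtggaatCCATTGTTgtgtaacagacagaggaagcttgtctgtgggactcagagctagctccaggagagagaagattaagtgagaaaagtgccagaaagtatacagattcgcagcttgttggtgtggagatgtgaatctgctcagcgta
Efl1 intron: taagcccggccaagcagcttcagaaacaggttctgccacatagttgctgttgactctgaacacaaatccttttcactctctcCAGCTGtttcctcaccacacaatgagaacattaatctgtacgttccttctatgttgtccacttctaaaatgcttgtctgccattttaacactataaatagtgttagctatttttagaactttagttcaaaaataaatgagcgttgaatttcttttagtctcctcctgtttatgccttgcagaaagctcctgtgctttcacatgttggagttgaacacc

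Peaks higher in adult were nearest to Fam43a, Pim3, Ppm1h, Irf2bp2, Arpc3, Xdh, Nuak2 and Chd9. The distal peak near Fam43a, chr16:30692282-30693473, was open in 8.11% and 5.10% of P0 nuclei, 14.5% in the P21 sample, and 19.8% and 20.4% at P56. The peak had a log2 fold change of 2.85 ± 0.25 with an adjusted p of 3.2e-08, and 3.28 at narrowed depth. A start-site peak of Xdh, chr17:73949505-73950884, was open in 0.833% and 1.01% of P0 nuclei of narrowed depth and in 8.89%, 14.6% and 16.2% of adult nuclei. The distal peak nearest to Irf2bp2, chr8:126734849-126737407, was open in 10.8% and 14.1% of P0 nuclei of narrowed depth and in 32.2% to 34.8% of adult nuclei. Each of the 8 was called again at narrowed depth, but with the other types pooled the Xdh peak did not pass the second test (adjusted p 0.16 in edgeR).

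**Figure D3:**
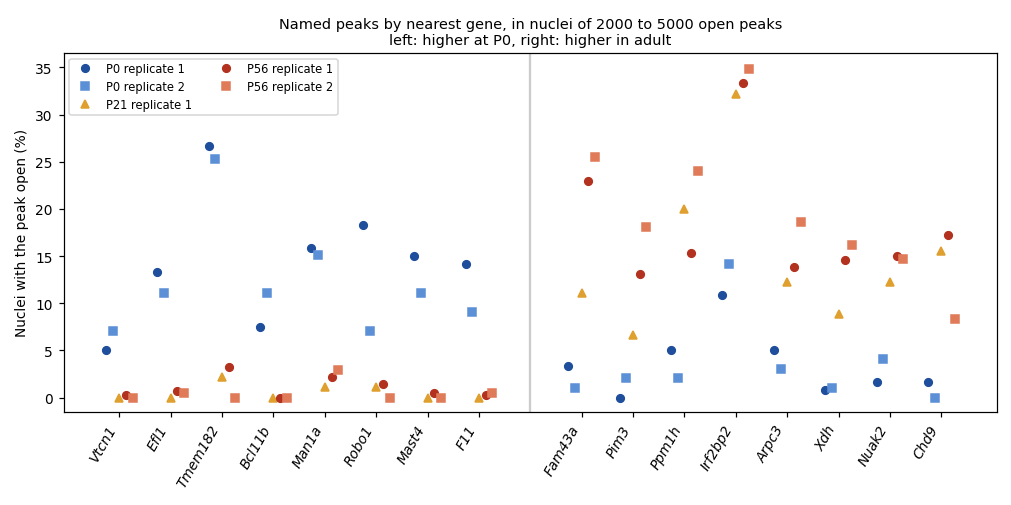
Share of endothelial nuclei with each named peak open, in nuclei of 2000 to 5000 open peaks, 1 point for each sample, with peaks higher at P0 on the left and higher in adult on the right. The peaks were chosen by their p over all nuclei, these included, and the Efl1 peak, for example, was open in 13.3% and 11.1% of P0 nuclei against at most 0.741% in adult samples.

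The place of changed peaks relative to genes was counted as a description. Of the 7496, 29.9% were distal and 18.4% at a start site, against 21.2% and 31.3% of all tested peaks. Of the 6703 higher in adult, 20.3% were distal and 27.8% at a start site. At narrowed depth these shares moved for both directions. Of 514 peaks higher at P0 at both depths 24.9% were distal and 28.2% at a start site, of 572 higher in adult 26.4% and 17.1%, against 13.2% and 59.0% of the 14801 peaks tested at both.

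Motif letters in the central 300 bases were counted on both strands as a description, over the 45184 tested peaks whose bases could be read. The ETS motif AGGAAGT was found in 18.7% of peaks higher at P0, 13.2% of those higher in adult and 14.0% of all tested peaks. Other ETS letters, CCGGAAG, went the other way, in 3.78%, 5.89% and 6.43%. Start sites made up 18.4%, 27.8% and 31.3% of these sets, and the shares are not matched for that. SOX letters (ATTGTT) were in 16.8%, 12% and 12.2%. The glucocorticoid receptor motif was in 3.82%, 5.40% and 3.78%, KLF letters (CCACACCC) in 2.45%, 4.50% and 3.36%, and the E-box CACGTG in 4.39%, 7.16% and 5.89%. The GC-rich KLF letters GGGCGGGG were in 6.20%, 9.91% and 10.3%, so by these shares adult peaks were not above all tested peaks. Averaged over 4 classes of GC content, they were in 8.39% and 11.4%, against 10.4% of peaks not called, so the order depended on base composition. The other E-box, CAGCTG, was in 25%, 19.5% and 21%. Away from start sites, over all nuclei, the receptor motif was in 6.42% of peaks higher in adult, against 4.66% of all tested there. Among peaks called at both depths, the receptor motif was in 10.4% of 570 higher in adult, against 2.98% of all peaks tested at both depths. Start sites made up 17.1% of that adult set and 59.0% of all, and these shares are not matched for that. The ETS and SOX letters were then in 20.8% and 17.3% of 514 peaks higher at P0 and in 13.9% and 12.5% of those higher in adult, against 12% and 9.23%, so adult peaks were above all peaks there, though not over all nuclei. CCGGAAG was in 4.67% and 3.68% of peaks higher at P0 and in adult against 10.9%, and GGGCGGGG in 7.78% and 6.14% against 19.2%. Start sites made up 28.2% and 17.1% of these called peaks and 59.0% of all, so the gaps are not matched for gene position.

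**Figure D4:**
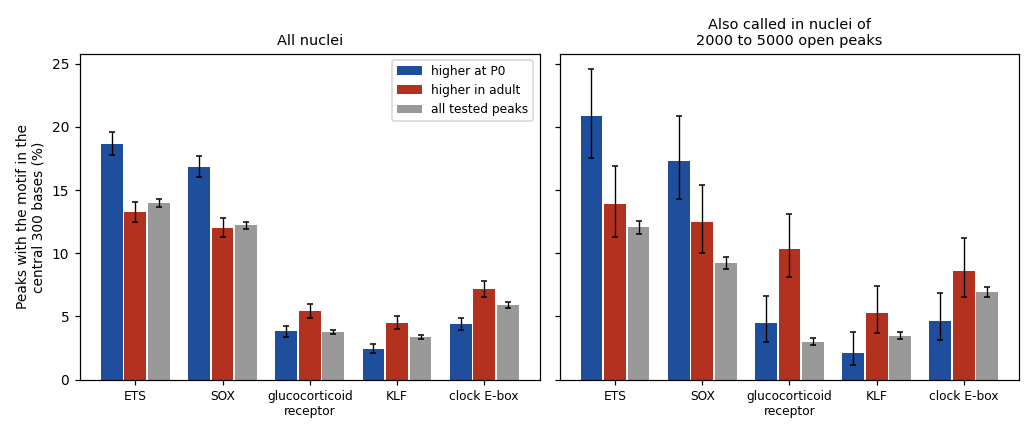
Share of peaks (%) with each of 5 motifs in the central 300 bases, for peaks higher at P0, higher in adult and all tested peaks, over all nuclei (left) and for peaks also called at narrowed depth (right), with 95% Wilson intervals as error bars that cover counting error only. The glucocorticoid receptor bar of adult peaks is 5.40% on the left and 10.4% on the right.

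The P21 sample took no part in a fit of the P0 against the P56 samples and could be placed on the axis through them. Of 6467 peaks called higher at P0 in that fit and tested over all 5 samples, the normalized P21 value was nearer to the P56 mean for 75.2%, and of 6216 such peaks higher at P56, for 69.4%. In 37.7% and 28.9% of these peaks P21 lay beyond the P56 mean. By the share of nuclei with the peak open, P21 was nearer to P56 for 95.7% of the former, but for 40.9% of the 2234 peaks of the latter whose share was also higher at P56. These shares are not matched for depth, so they do not place P21 by stage. Median open peaks were 2099 at P21, 2441.5 and 2306 at P56, and 7195.5 and 6508.5 at P0. By normalized values P21 was nearer to P56 for 68.2% of 2817 genes higher at P0 and 76.8% of 1947 higher at P56, and beyond the P56 mean for 28.9% and 25.5%. Zbtb16, Xdh, Ly6c1 and Lin28b lay between the stages at P21, while Nr1d1 and H2-K1 were within the range of the P56 samples.

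The endothelial share of nuclei overlapped between the stages. It was 9.88% and 7.58% of nuclei in the P0 samples, 6.58% in the P21 sample, and 9.99% and 6.74% at P56. The means were 8.73% ± 1.63 (SD, n = 2) and 7.77% ± 1.92 (SD, n = 3), with a two-sided exact permutation p of 0.60, where the smallest p that 2 against 3 samples can give is 0.20.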

How the data were processed

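Nuclei of mouse kidney were profiled by snATAC-seq. Per the labels and the study's methods, the authors aligned reads to mm10 (GRCm38) with Cell Ranger ATAC 1.1.0, clustered nuclei with SnapATAC and Harmony, named clusters from marker genes, called MACS2 peaks on the pooled nuclei of each type, merged them, and deposited a binarized nucleus-by-peak matrix, so that each deposited count is 1 for an open peak. In their scheme P21 and P56 are adult. The endothelial members and the gene and motif lists were chosen with earlier results of these data known.

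Open calls were summed over the endothelial nuclei of each sample, per peak and per gene (gene body and 2 kb upstream, GENCODE M21, GRCm38). Sums were tested in edgeR 4.0.16 (filterByExpr with a minimum count of 10 and total of 15, TMM, quasi-likelihood test, Benjamini-Hochberg adjustment at 0.05), 2 P0 against 3 adult samples. Each ± on a fold change is an approximate SE, the absolute log2 fold change over the square root of the test's F statistic. The test against other types was a quasi-likelihood test of the interaction over 65 sums of 13 types. The sample was a block and tagwise dispersion was switched off. Most of these sums are of other types, so its p-values rest in large part on their spread. Named genes were the list members, plus in each direction the 12 protein-coding genes with the largest fold change that passed both tests, did not overlap between groups and had a mean of at least 100 open calls in the higher group. The 147 counted over the alternatives were the called list members and these added genes. Named peaks were the 8 with the lowest p that passed both tests, 1 per nearest gene, and the start-site peaks of list genes. The intronic peaks of Zbtb16 and Nr1d1 fall outside these rules and were shown for their motif letters. Motifs were searched on both strands in the central 300 bases, and promoters were those of RefSeq. The stage test in edgeR and the fit with other types pooled were also run on simulated data, and the other fits were not. Alternatives were DESeq2 1.42.0, its size factors, no filter, equal nuclei, nuclei thinned to 1000 open peaks, P56 only, a start-site window, a replicate block and each sample left out, and, chosen after seeing the data, nuclei of 2000 to 5000 open peaks, other types pooled, and motifs and gene positions of peaks called at both depths. P0 and P56 samples of the same number shared only a number. Binarization and the 3.00 ratio of depths limit what levels can be compared, and intervals cover counting error only. UMAP coordinates were not used. Bulk ATAC-seq was not analysed here.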

Additional observations from a re-analysis of the deposited data

Results flagged for a closer look

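The stage change of endothelium differed from the mean stage change of the 12 other cell types for 1241 peaks in the P0 direction and 2338 in the adult direction, and for 1463 and 1770 genes, each by the interaction test in edgeR. Leaving out 1 sample gave 352 to 1103 and 656 to 2497 peaks, lowest without the first P0 sample, and 356 to 1771 and 517 to 1770 genes, and pooling the other types gave 8952 and 7424 peaks and 3437 and 3573 genes. Among these, 109 peaks and 60 genes were called one way within endothelium and the opposite way against the other types. Endothelium also had the largest ratio of P0 to adult depth among the types, and its part in these differences was not tested.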

How the results depend on the processing

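Counts of calls depended on the fit, as P0 then adult. For peaks (7496 and 6703) they were 2210 and 2645 with DESeq2, 12314 and 3585 with no filter, 1991 and 1644 with equal nuclei, 365 and 367 after thinning, and 625 and 574 at narrowed depth. For genes (3020 and 2477) they were 1313 and 1537 with DESeq2, 1864 and 1386 with equal nuclei, 732 and 444 after thinning, 801 and 512 at narrowed depth, and at P0 1961 with the start-site window. Thinning and narrowing also leave fewer open calls. Leaving out each sample gave 1724 to 8099 and 1177 to 8309 peaks and 533 to 3952 and 269 to 4346 genes, lowest without P0 replicate 1. Against other types, pooling these gave 8952 and 7424 peaks and 3437 and 3573 genes, stroma and podocytes alone gave 4109 peaks in adult, and leaving out each sample gave 352 to 1103 and 656 to 2497 peaks and 356 to 1771 and 517 to 1770 genes. With 1 P0 sample left, it was assumed to vary like the adult samples. The causes were not tested.

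With the replicate block, peaks numbered 6861 and 6249 and genes 2664 and 2374. The correlation of same-numbered deviations was 0.129 for peaks and 0.136 for genes over 2 pairs, so the numbers were not read as pairs.

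The endothelial share difference of 0.962 points became -0.188 without P0 replicate 1, and ranged from -0.188 to 2.11 over samples left out. By shares of nuclei, which are not matched for depth, P21 was nearer P56 for 95.7% of peaks higher at P0 and 40.9% higher in adult. Among peaks called at both depths, start-site and distal shares moved from 18.4% and 29.9% to 28.2% and 24.9% at P0, and from 27.8% and 20.3% to 17.1% and 26.4% in adult. Motif shares over those of all tested peaks moved away from start sites to 1.24 for ETS and 1.24 for SOX at P0 and 0.881 for ETS in adult. At both depths they were, at P0 and in adult, 1.73 and 1.15 for ETS, 1.88 and 1.35 for SOX, 1.5 and 3.47 for the glucocorticoid receptor and 0.617 and 1.52 for KLF. The sets at both depths differed in start sites, 28.2% and 17.1% against 59.0% of all, and these ratios are not matched for that. For the 147 named genes, 1527 of 1988 comparisons kept direction and call, 461 lost the call, most often without a P0 sample, and 0 reversed. Comparisons where a gene fell below the filter are not counted, and P56 only and the fit without P21 are the same fit. The genes were chosen because they were called in these same nuclei, so kept directions are no independent check.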

Other observations

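In the study's single cell RNA-seq, 2196 of 25138 P0 cells were annotated as endothelial (8.74%, 95% exact binomial interval 8.39% to 9.09%), against 199 of 18498 adult cells (1.08%, 0.932% to 1.24%). There was 1 library for each stage, so no test was made, and the intervals cover counting error only. These cells were dissociated with enzymes, unlike the nuclei, whose endothelial shares overlapped between the stages.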
